A study of Homo sapiens with 6 samples.

Results

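The 53 genes described here encode proteins that copy DNA and divide the cell, taken from a fixed list of DNA replication and mitosis genes. Each gene was read through the brightest of the probe sets that the platform annotation assigns to it alone, by mean signal over all arrays. All 53 were found on the array and all 53 passed the filter on dim probe sets, among 13781 genes tested and 19775 named. By role, 23 act in DNA replication, 26 in mitosis, and 4 are transcription factors that switch such genes on.

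The arrays, Affymetrix HG-U133 Plus 2.0, measured RNA of Hep3B, a human line from a hepatocellular carcinoma. Clone pU6-2 carried the plasmid pU6 and served as control, and clone D20 carried the plasmid siSDHB, aimed at SDHB, which encodes a subunit of mitochondrial complex II. Both clones were kept under G418 and harvested when nearly confluent, and RNA of each went to 3 arrays named A, B and C. Each group is therefore a single clone, so the silencing and the clone cannot be told apart, and the p-values below measure only the spread between arrays, which may be technical. SDHB itself is not analysed here.

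Before S phase, the origin recognition complex, CDC6 and CDT1 load the MCM2 to MCM7 helicase onto DNA. CDC45 and the GINS complex then activate it, and polymerases working with the PCNA clamp copy the template. Factors of the E2F family drive replication genes from late G1. Genes of mitosis follow in G2, many through the DREAM and MuvB complexes with MYBL2 and FOXM1, which act at an element called the CHR, often beside CCAAT boxes bound by NF-Y. In a bulk sample, fewer dividing cells and less of a transcript in each dividing cell cannot be told apart.

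Promoter sequences of 4 genes are shown because these genes hold the largest called rises of replication genes and the largest called falls of mitosis genes among members with a single listed promoter that holds one of the motifs searched. They are RefSeq promoters of GRCh38.p14, 250 bases before the gene's start and 50 after it, written 5′ to 3′ on the gene's strand. Capitals mark letters of an E2F site (TTTCCCGC, TTTCGCGC, TTTGCCGC or TTTGGCGC), a CHR element (TTTGAA or TTCGAA) or a CCAAT box (CCAAT), on either strand.
CDT1, chr16:88803539-88803838, + strand: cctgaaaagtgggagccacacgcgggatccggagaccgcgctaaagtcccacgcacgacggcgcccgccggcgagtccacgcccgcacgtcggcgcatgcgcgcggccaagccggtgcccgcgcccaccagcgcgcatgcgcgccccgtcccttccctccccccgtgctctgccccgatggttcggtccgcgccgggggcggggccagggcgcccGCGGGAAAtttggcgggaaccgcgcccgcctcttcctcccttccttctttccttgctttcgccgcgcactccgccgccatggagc
TYMS, chr18:657403-657702, + strand: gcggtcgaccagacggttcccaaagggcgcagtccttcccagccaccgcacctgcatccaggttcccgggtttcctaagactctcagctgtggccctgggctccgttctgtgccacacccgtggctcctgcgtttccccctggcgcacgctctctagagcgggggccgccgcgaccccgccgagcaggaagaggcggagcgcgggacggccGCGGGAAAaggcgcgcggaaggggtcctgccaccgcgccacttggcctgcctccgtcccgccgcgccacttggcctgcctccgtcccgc
NUF2, chr1:163321704-163322003, + strand: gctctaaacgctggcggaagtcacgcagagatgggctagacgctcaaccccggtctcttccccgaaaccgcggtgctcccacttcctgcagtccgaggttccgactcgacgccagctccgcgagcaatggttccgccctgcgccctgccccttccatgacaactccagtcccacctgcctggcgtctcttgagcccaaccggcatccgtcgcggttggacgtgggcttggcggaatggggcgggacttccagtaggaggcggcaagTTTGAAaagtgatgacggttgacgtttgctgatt
PLK1, chr16:23678639-23678938, + strand: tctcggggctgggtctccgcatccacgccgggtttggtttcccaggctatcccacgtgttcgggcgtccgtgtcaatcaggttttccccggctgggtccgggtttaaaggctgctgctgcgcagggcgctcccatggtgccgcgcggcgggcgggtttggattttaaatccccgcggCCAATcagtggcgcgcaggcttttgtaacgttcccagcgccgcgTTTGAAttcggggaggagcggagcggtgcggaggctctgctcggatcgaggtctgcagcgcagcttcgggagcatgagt

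In CDT1, which loads the helicase, the E2F letters begin at position -35 from the start, and in TYMS, thymidylate synthase, at position -39. NUF2, a kinetochore protein, has CHR letters at position 17. PLK1, the polo-like kinase of mitotic entry, has a CCAAT box at position -73 and CHR letters at position -29. Of the 53 members 45 matched a promoter entry, with 56 entries between them. E2F letters were in 13 of 27 replication entries (48.1%) and 3 of 26 mitosis entries (11.5%), against 4.6% of the 16066 entries of tested genes and 3.3% of all 35116 promoters. CHR letters ran the other way, in 2 replication entries (7.4%) and 18 mitosis entries (69.2%), against 12.3% for tested genes and 16.4% for all promoters. CCAAT boxes were common in both classes, at 70.4% and 76.9%, against 34.7% for tested genes and 34.6% for all promoters. A CHR and a CCAAT box stood together in 57.7% of mitosis entries and 7.4% of replication entries (4.9% of tested genes' entries, 6.4% of all). Counted by gene, E2F letters were in 13 of 21 replication genes and 2 of 21 mitosis genes, and CHR letters in 2 and 16. Of the 11112 tested genes with a promoter entry, 6.3% held E2F letters and 16% held CHR letters. The motifs do not share letters in the 4 windows shown, and a match is a description of letters only.

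**Figure D1:**
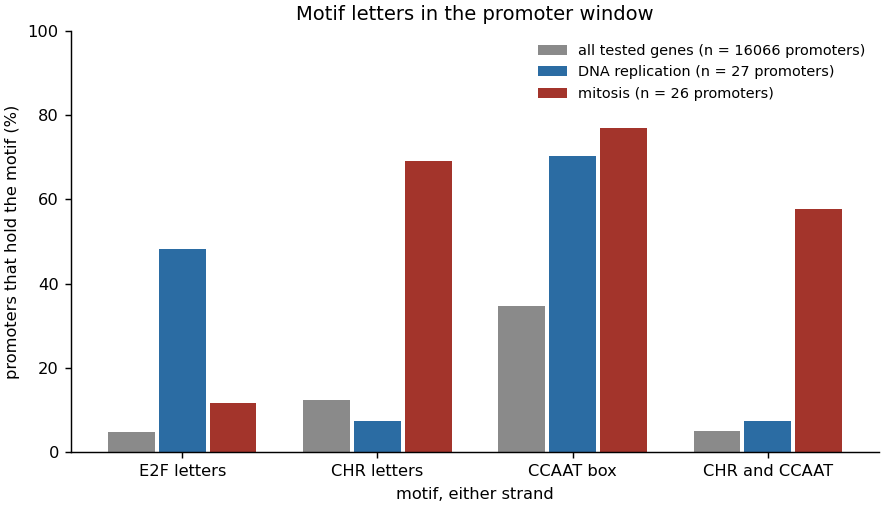
Share of promoter entries (vertical axis, percent) that hold each motif (horizontal axis) on either strand, for tested genes (grey), replication members (blue) and mitosis members (red). E2F letters were in 48.1% of replication entries and CHR letters in 69.2% of mitosis entries.

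Most of these transcripts differed by less than 2-fold between the clones. By limma, with p-values adjusted by the Benjamini-Hochberg method across every probe set tested, 9 of the 53 members were called higher in D20 and 13 lower, and 31 did not pass. The 22 called genes are 41.5% of the members, close to the background of 44.6% of all 13781 genes, of which 23.8% were called higher and 20.8% lower. Among the 9548 genes at least as bright as the dimmest member, ORC1, 54.6% were called. The D20 arrays lay wholly apart from the control arrays for 30 members (56.6%), against 54.3% of all genes. The sizes were small: 1 of 53 members, FOXM1, changed at least 2-fold (1.89%), against 19.3% of all genes and 16.8% of those 9548 genes. The median absolute log2 fold change was 0.25 over the members and 0.40 over the same 9548.

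Replication genes and mitosis genes leaned differently. Of 23 replication genes 7 were called higher and 5 lower (52.2%), with a median log2 fold change of 0.08. Of 26 mitosis genes 1 was called higher and 7 lower (30.8%), with a median of -0.13. The median over all genes was 0.04. The mean log2 fold changes were 0.05 for replication genes, -0.16 for mitosis genes and 0.10 for all genes, so by means both classes lay below all genes. These medians move with the scaling of the arrays, the replication median to -0.04 with median centring and the mitosis median to 0.05 with spike-in scaling. Relative to the median of all probe sets the mitosis median was -0.16 as deposited, -0.16 with median centring, -0.15 with spike-in scaling and -0.08 with quantile normalization. The replication median was 0.06, 0.06, 0.07 and 0.09 above it in the same order. Of the members called, 40.9% were higher as deposited, 22.7% with median centring, 48% with quantile normalization and 73.7% with spike-in scaling. Of all probe sets called the share was 53.5%, 42%, 49% and 70.5% in the same order, so the calls of the members moved together with those of the whole array.

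**Figure D2:**
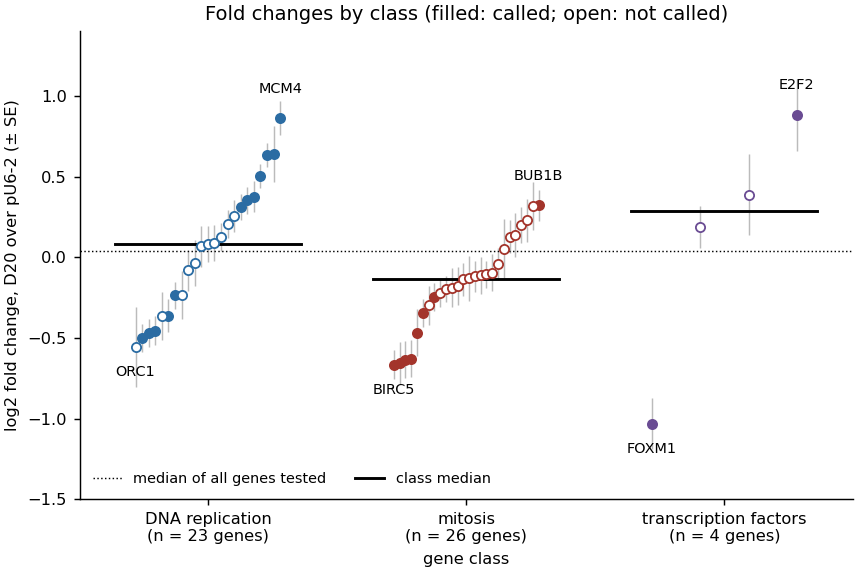
Log2 fold change of each gene, D20 over pU6-2, with its SE (vertical axis), by class (horizontal axis). Filled points passed the test, open points did not, bars mark the class medians of 0.08, -0.13 and 0.29, and the dotted line marks the median of all genes tested, 0.04.

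The difference between the classes can also be read within each array, where a scaling of the whole array largely cancels. The mean log2(signal + 16) of the 26 mitosis genes minus that of the 23 replication genes was -0.29, -0.30 and -0.32 on control arrays A, B and C, and -0.58, -0.50 and -0.46 on D20 arrays A, B and C. The 3 D20 values all lay below the 3 control values. The means were -0.30 ± 0.01 (SD, n = 3) and -0.51 ± 0.06 (SD, n = 3). Levels of different probe sets are not comparable, so only the change of this difference between the clones is read. It is a description, with no test, because the genes were chosen with results of these arrays known. The mitosis mean was 11.003 ± 0.04 in the control and 10.85 ± 0.03 in D20, and the replication mean 11.31 ± 0.05 and 11.36 ± 0.03 (SD, n = 3 each).

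**Figure D3:**
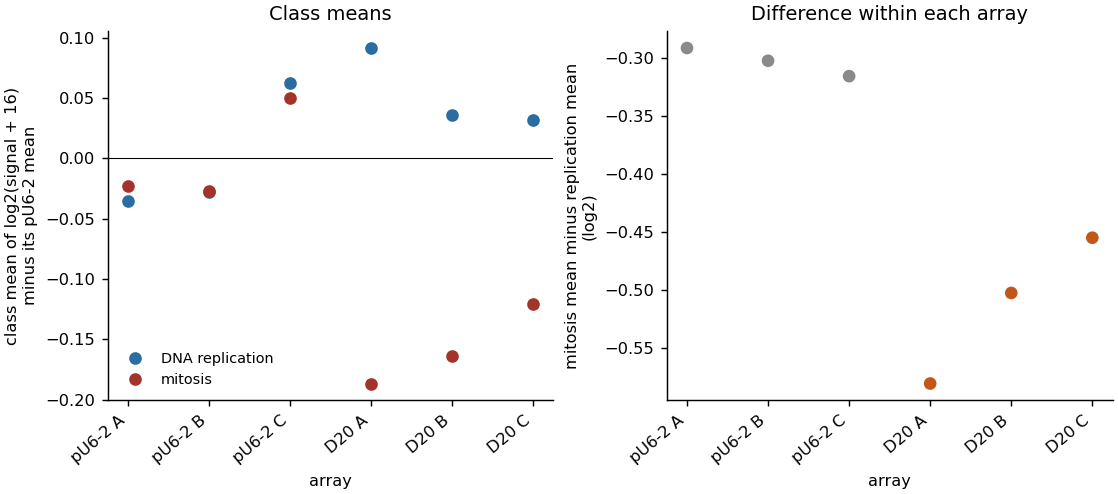
Left, the class mean of log2(signal + 16) on each array minus its control mean, for replication (blue) and mitosis (red) genes. Right, the mitosis mean minus the replication mean on each array, with control arrays (grey) from -0.32 to -0.29 and D20 arrays (orange) from -0.58 to -0.46.

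Among the transcription factors, FOXM1 and E2F2 moved in opposite directions. FOXM1, the forkhead factor of G2 and mitosis genes, had signals of 1618, 1849 and 1593 in the control and 947, 927 and 616 in D20. All D20 arrays lay below all control arrays, a log2 fold change of -1.03 ± 0.16 (SE, adjusted p = 2.0e-04). This was the only tested probe set of FOXM1, so no other one checks the value. E2F2, an activator E2F, had signals of 208, 219 and 170 in the control and 414, 292 and 448 in D20. Here the D20 arrays all lay above, a log2 fold change of 0.88 ± 0.22 (SE, adjusted p = 0.0072). E2F1, the best known activator E2F, ran from 299 to 429 in the control and from 323 to 692 in D20, with overlapping arrays (0.39, adjusted p = 0.26). A second probe set of E2F1 was called higher, at 0.55. MYBL2, the MuvB partner, overlapped as well (0.19, adjusted p = 0.30). The difference between these fold changes was not tested.

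The MCM helicase did not move as a unit, although its 6 subunits form a ring in equal numbers. MCM4 rose, with signals of 1669, 2025 and 1747 in the control and 3009, 3513 and 3401 in D20 (0.86 ± 0.11 SE, adjusted p = 3.1e-05). MCM6 rose less, from 6577 to 7180 in the control and from 8454 to 9523 in D20 (0.35, adjusted p = 0.0042). MCM5 fell, with signals of 5415, 6115 and 6073 in the control and 4194, 4269 and 3953 in D20 (-0.50 ± 0.09 SE, adjusted p = 4.7e-04). MCM7 also fell, from 6099 to 7012 in the control and from 4478 to 5220 in D20 (-0.46, adjusted p = 0.0014). For each of these 4 subunits the arrays of the clones did not overlap. MCM2 (0.12, adjusted p = 0.29) and MCM3 (0.21, adjusted p = 0.091) did not pass the test, but both were called higher with quantile normalization and with spike-in scaling. MCM5 and MCM7 did not pass it with spike-in scaling (-0.32 and -0.27), nor MCM6 with median centring (0.23) or without limma's variance trend. MCM4 passed under each of the 17 alternatives run. Of its other probe sets, those at 0.87 and 0.32 were called higher and that at 0.30, with overlapping arrays, was not. No alternative read these other probe sets alone.

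Among the members that load and fire the helicase, CDT1 and GINS1 were called higher and none was called lower. Outside the members, other genes of these steps were called both ways, ORC5 (-0.77) and DBF4 (-1.13) lower, ORC4 (0.49) and CDC7 (0.60) higher. CDT1 had signals of 950, 784 and 1114 in the control and 1884, 1162 and 1457 in D20. The D20 arrays lay above the control arrays but spread widely (0.64 ± 0.17 SE, adjusted p = 0.011). The call was lost without control replicate B (0.51), D20 replicate A (0.46) or limma's variance trend. GINS1, a GINS subunit, rose from 1902 to 2124 in the control to 2502 to 2740 in D20 (0.38, adjusted p = 0.0069). It did not pass the test with median centring (0.26) or without the variance trend. GINS2 was at 0.08, CDC45 at -0.23 and CDC6 at 0.09, with overlapping arrays in each case. ORC1, the largest subunit of the origin recognition complex, was the dimmest member (-0.56, adjusted p = 0.10), and its arrays overlapped. MCM10, which helps start the fork, lay lower on all D20 arrays without passing the test (-0.36, adjusted p = 0.074). With quantile normalization ORC1 and MCM10 were both called lower.

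At the fork, the clamp rose and its loader was split. PCNA had signals of 7438, 7864 and 7961 in the control and 12332, 11909 and 11916 in D20. These groups lay far apart relative to their spread, a log2 fold change of 0.64 ± 0.07 (SE, adjusted p = 2.0e-05). Of the clamp loader, RFC4 rose (0.31, adjusted p = 0.0093), RFC3 fell (-0.36, adjusted p = 0.014) and RFC2 was at -0.04 (adjusted p = 0.88). Its subunits outside the members were RFC5, called lower (-0.38), and RFC1, not called (0.20). RFC4 did not pass the test with median centring (0.19) or without limma's variance trend. RFC3 did not pass the test in 5 of the 17 alternatives, among them leaving out control replicate B (-0.33) or C (-0.35) and averaging its probe sets (-0.16). PRIM1, the primase subunit that makes the RNA primer, fell by 0.24 on the log2 scale (adjusted p = 0.044), and lost this call in 10 of the 17 alternatives, among them each that left out 1 array. POLA1, its polymerase alpha partner, was at -0.08 and POLE2, a subunit of polymerase epsilon, at 0.07, with overlapping arrays for both.

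Nucleotide supply moved in both directions. TYMS, which makes thymidylate, rose from 9084, 9921 and 9688 in the control to 13727, 13990 and 12933 in D20 (0.50 ± 0.08 SE, adjusted p = 1.9e-04), and its other probe sets were called higher at 1.12 and 1.56. The large subunit of ribonucleotide reductase, RRM1, fell from 5389, 5740 and 5884 to 4452, 3861 and 3993 (-0.47 ± 0.09 SE, adjusted p = 9.3e-04). A second RRM1 probe set was at -0.12 with overlapping arrays (adjusted p = 0.46). All D20 arrays lay above the control arrays for TYMS and below them for RRM1. With spike-in scaling RRM1 lost its call (-0.28). The small subunit, RRM2, did not pass the test by its brightest probe set (0.26, adjusted p = 0.06) and was called higher by the other (0.67).

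**Figure D4:**
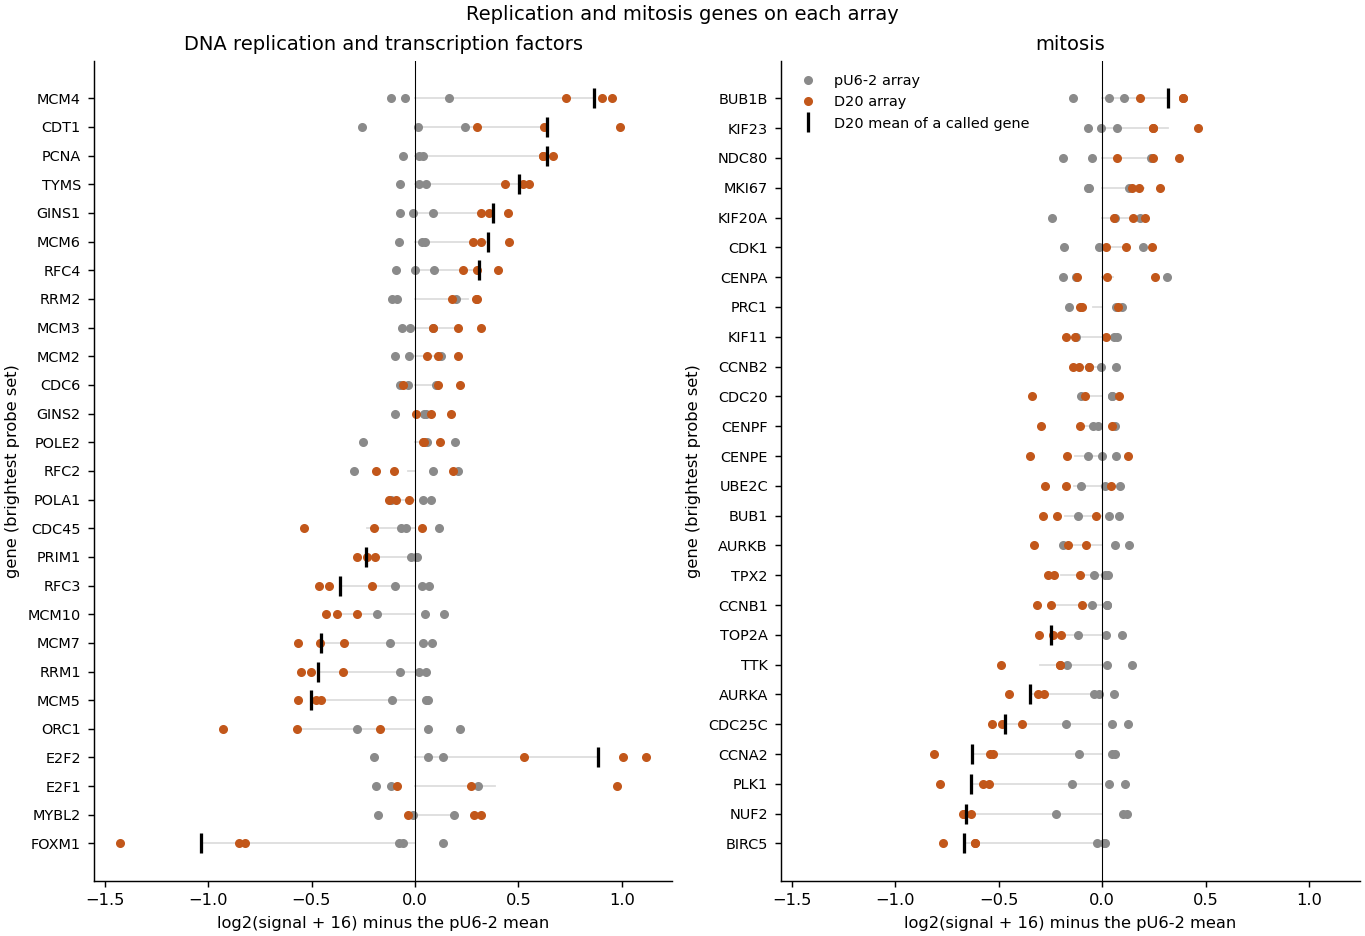
Log2(signal + 16) on each array minus the mean of the control arrays (horizontal axis) for each gene (vertical axis), control arrays in grey and D20 arrays in orange. Black ticks mark the D20 mean of the 22 called genes, from -1.03 for FOXM1 to 0.88 for E2F2.

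In mitosis, the cyclins and CDK1 activators included 2 called falls and no called rise among 5 genes. Cyclin A2, CCNA2, which acts in S phase and G2, had signals of 2071, 1834 and 2054 in the control and 1356, 1121 and 1371 in D20. The D20 arrays lay below the control arrays (-0.63 ± 0.11 SE, adjusted p = 7.5e-04), and the second CCNA2 probe set was also called lower (-0.40). CDC25C, the phosphatase that activates CDK1, ran from 635 to 784 in the control and from 492 to 546 in D20 (-0.47, adjusted p = 0.021). CDC25C did not pass the test without control replicate A, control replicate B or D20 replicate A, or with spike-in scaling. The mitotic cyclins CCNB1 (-0.22, adjusted p = 0.067) and CCNB2 (-0.10, adjusted p = 0.36) lay lower on all D20 arrays without passing. CDK1, the kinase they bind, was at 0.13 with overlapping arrays, and 2 of its other probe sets were called higher at 0.37 and 0.38.

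Of 7 genes of the mitotic kinases and the spindle checkpoint, 3 fell and 1 rose. BIRC5, survivin of the chromosomal passenger complex, had signals of 3197, 3270.3 and 3274 in the control and 2113, 2114 and 1901 in D20 (-0.67 ± 0.09 SE, adjusted p = 7.5e-05). PLK1 had 1599, 1911 and 1810.4 in the control and 1022, 1206 and 1180.3 in D20 (-0.63 ± 0.12 SE, adjusted p = 7.8e-04). For both, the groups did not overlap. AURKA, the spindle pole kinase, fell by 0.35 on the log2 scale (adjusted p = 0.0067), and a second probe set by 0.60. The first did not pass with spike-in scaling (-0.16) or without limma's variance trend. Another AURKA probe set, with low signals, was at -0.82 and not called, and the alternative that reads it lost the call. BUB1B, which encodes the checkpoint protein BUBR1, was the only mitosis gene called higher (0.32 ± 0.10 SE, adjusted p = 0.02). Its call was lost in 5 of the 17 alternatives, among them leaving out control replicate B, D20 replicate B or D20 replicate C. BUB1 (-0.18), TTK (-0.30, adjusted p = 0.072) and AURKB (-0.19), the passenger complex kinase, did not pass.

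At the kinetochore 1 of 5 genes was called. NUF2, of the NDC80 complex that binds microtubules, had signals of 1189, 934 and 1175 in the control and 699, 682 and 681 in D20 (-0.66 ± 0.13 SE, adjusted p = 0.0016). Its partner NDC80 was at 0.23 (adjusted p = 0.21), with overlapping arrays. CENPA, the centromeric histone, was at 0.05 by the 1 probe set that the annotation gives to it alone, and the kinetochore proteins CENPE and CENPF were at -0.13 and -0.12. The difference between NUF2 and NDC80 was not tested.

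None of the 5 spindle motor and midzone genes passed the test. The motors KIF11 (-0.10), KIF20A (0.14) and KIF23 (0.32), the spindle assembly factor TPX2 (-0.20) and the bundling protein PRC1 (-0.04) had adjusted p from 0.07 (TPX2) to 0.77 (PRC1). The D20 arrays lay all above the control arrays for KIF23, all below for TPX2, and overlapped with them for the other 3. TPX2 was called lower with median centring and KIF23 higher with spike-in scaling. CDC20 (-0.11) and UBE2C (-0.14), which work with the anaphase-promoting complex, did not pass either, and their arrays overlapped. MKI67, which encodes the proliferation marker Ki-67, had signals of 1182, 1190.0 and 1362 in the control and 1373, 1406 and 1514 in D20. All D20 arrays were higher, by a log2 fold change of 0.20 that did not pass the test (adjusted p = 0.18), except with spike-in scaling (0.38). Its 3 other probe sets were at -0.19, 0.03 and -0.29, none of them called.

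Among 27 members with more than 1 tested probe set, 9 gave both signs, 7 of them mitosis genes: CCNB1, AURKB, BUB1, BIRC5, KIF23, MKI67 and TOP2A. The others were CDC6 and RFC3. Of 42 further probe sets 31 had the sign of the brightest. For the called members, 10 of 21 further probe sets were called the same way, 10 were not called and 1 was called the opposite way. That one belongs to TOP2A, topoisomerase II alpha, whose brightest probe set fell (-0.25, adjusted p = 0.04) while another rose from 3112 to 4475 (0.51, adjusted p = 0.0048). The fall also lost its call without any one array other than control replicate B, so TOP2A has no settled direction here. A further BIRC5 probe set was at 0.13 and not called, and another was called lower at -0.59.

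The neighbourhood on the chromosome was compared for each member through the median log2 fold change of up to 20 tested genes beside it, 10 on each side, with other members left out. These medians ran from -0.49 (FOXM1) to 0.48 (TYMS and NDC80), while for all tested genes the 5th percentile was -0.47 and the 95th percentile 0.41. TYMS and NDC80 lie in the same neighbourhood. The sign of the neighbours was shared by 29 of the 53 members, 16 of the 22 called and 13 of the 31 not called. It was shared by 58.1% of all tested genes, called or not. No share was taken over called genes alone, so the split by call has no background here. NUF2 (-0.38), RRM1 (-0.30), MCM7 (-0.32), MCM5 (-0.22) and PRIM1 (-0.40) lay among neighbours with a median below 0. Of the called rises, BUB1B (0.34), MCM6 (0.24), PCNA (0.15) and GINS1 (0.13) lay among neighbours above 0, and RFC4 among neighbours at -0.07. CCNA2 (0.29) and CDC25C (0.24) fell among neighbours with a median above 0, and CDT1 rose among neighbours at -0.28. For PLK1, BIRC5 and E2F2 the neighbours lay near 0, at -0.02, 0.04 and 0.00. The part of the neighbourhood in these results was not tested.

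Other genes of the same pathways moved in both directions. Of 37 further replication genes 13 rose and 7 fell, with a median of 0.07, or 10 and 9 with a median of -0.05 with median centring. POLD3 (1.497), a subunit of polymerase delta, SLBP (1.03), which binds histone mRNA, and RNASEH2A (1.01) rose most. POLA2 (-1.17), DBF4 (-1.13), the activator of the CDC7 kinase, and the flap nuclease FEN1 (-0.79) fell most. Of 56 further mitosis genes 6 rose and 15 fell, with a median of -0.10, or 14 and 7 with a median of 0.08 with spike-in scaling. The largest falls were those of CKS2 (-1.55), a CDK-binding protein, the centromere protein CENPN (-1.24) and CDCA5 (-1.20), sororin. The largest rises were those of CENPK (1.07), the condensin subunit NCAPH (0.63) and HJURP (0.53), the chaperone of CENPA. The background of called genes is 23.8% higher and 20.8% lower, as above.

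The E2F, RB and DREAM list held 6 rises and 4 falls among 16 genes. Called genes were 62.5% of it, against 44.6% of all genes and 54.6% of those at least as bright as the dimmest member. Changes of at least 2-fold were 18.8% of it, against 19.3% of all genes. TFDP2 (1.36), an E2F partner, E2F7 (0.93), a repressor E2F, and LIN37 (0.72) rose. E2F8 (-1.10) and LIN9 (-0.84) fell, LIN9 not with spike-in scaling. LIN54, the DNA-binding subunit of MuvB, was called lower as well (-1.69 ± 0.57 SE, adjusted p = 0.035). Its signals were low, at 232, 129 and 131 in the control and 3.2, 91.2 and 60.5 in D20, so the size of its fall is uncertain. Upstream in G1, the list of cyclins, their kinases and inhibitors held 8 rises and 6 falls among 16 genes and 9 changes of at least 2-fold. Here 87.5% were called and 56.2% changed at least 2-fold, against 44.6% and 19.3% of all genes. CDKN1A, the inhibitor p21, went from 85.3 ± 56.6 to 3754 ± 193 (SD, n = 3; 5.43), and CCNE2 rose as well (2.15), while CDKN2B (-2.78), CCND1 (-1.69) and CDKN2A (-0.75) fell. CCND2 was called higher, with signals of 49.6, 3.5 and 7.5 in the control and 258, 193 and 161 in D20, and its control mean of 20.2 lies under the 43.2 of the filter, so no fold is given.

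Measures of the arrays and of cell identity moved as follows, and their part in the results was not tested. The median signal was 77.5 to 83.9 in the control and 85.9 to 92.2 in D20, and the GAPDH 3′ to 5′ ratio, a sign of RNA quality, 1.08 to 1.15 and 1.11 to 1.253. Of 15 hepatocyte markers 13 were tested, 9 fell and 2 rose, and their summed signal was 338010 to 346822 in the control and 153111 to 176717 in D20. FABP1 (-6.51), AFP (-5.62) and APOA1 (-3.33) fell most, and FGB (1.71) and FGA (1.09) rose. Of 12 fibroblast markers 8 were tested, 2 rose (COL1A1 and VIM, the latter at 0.40) and 2 fell (LUM and PDGFRA, the latter at -0.58). Their summed signals were 10962 to 12459 in the control and 17450 to 18887 in D20. VIM alone made up most of these sums, with mean signals of 10413 in the control and 13733.5 in D20. COL1A1 had signals of 0.7 to 1.7 in the control and 3440 to 4231 in D20, and LUM 116 to 206 and 1.5 to 18.6. The low side of each is under the highest mean signal left out by the filter, 43.2, so no fold is given. COL3A1, COL6A3, FAP and POSTN were among the dimmest probe sets left out. GAPDH was at 0.04 (adjusted p = 0.80), or -0.08 with median centring, neither of which passed, and ACTB was called higher at 0.28, but not with median centring.

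**Figure D5:**
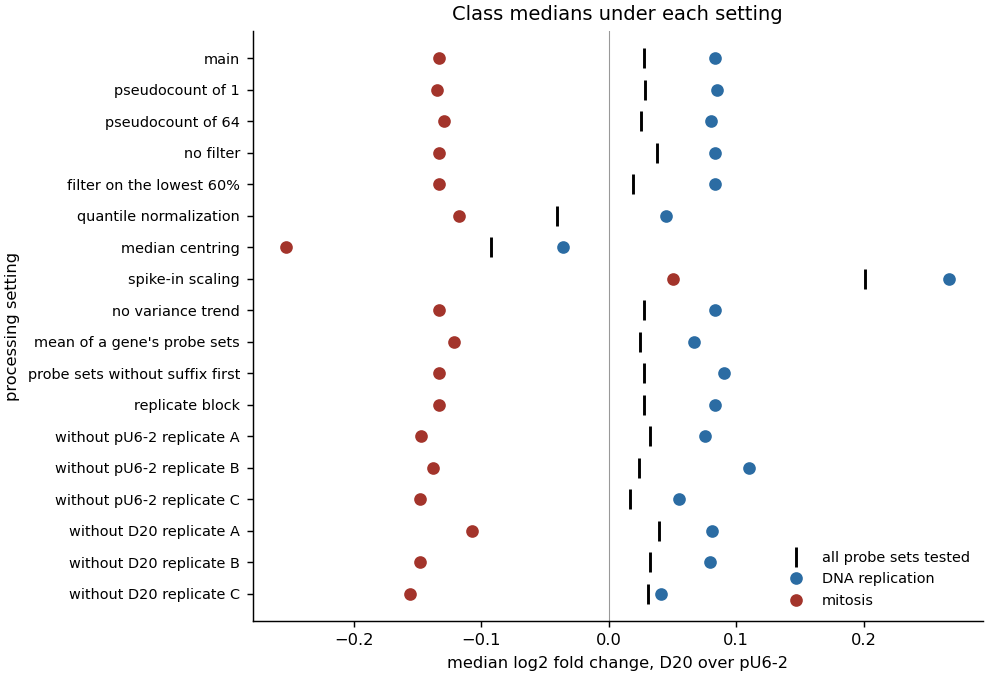
Median log2 fold change, D20 over pU6-2 (horizontal axis), of replication genes (blue), mitosis genes (red) and all probe sets tested (black ticks) under each processing setting (vertical axis). The mitosis median lay below that of all probe sets and the replication median above it in every setting drawn. The replication median lay above it by only 0.0099 without D20 replicate C.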

How the data were processed

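The deposited table holds intensity values, 1 MAS5 signal on a linear scale for each of 54675 probe sets and 6 arrays, made with MAS5 per the submitters' processing notes. No version or scaling target is given in the sources used here. Gene symbols came from the platform annotation in GEO and were brought up to date, through Entrez identifiers, with RefSeq for GRCh38.p14. Of these, 1801 with several symbols were not named. Signals were transformed to log2(signal + 16), which understates changes of dim genes. Control probe sets (62) and the 40% with the lowest mean were left out, leaving 32768.

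D20 was compared with pU6-2 by the lmFit and eBayes (trend option) functions of limma 3.58.1, run under R 4.3.3. Tests were two-sided, p-values were adjusted by Benjamini-Hochberg across the 32768 probe sets, and the threshold was 0.05. Fits were tested on simulated data. A gene was named if it was a member, or among the 3 largest called rises or falls of another list, or was ACTB or GAPDH. Markers left out by the filter are named to complete their count. ORC4, ORC5, CDC7, RFC1 and RFC5 are named beside the members they work with. Members and lists were chosen with earlier results of these data known. Same-lettered arrays did not deviate together (correlations -0.02, 0.05 and 0.01 across probe sets), so arrays were not paired. Alternatives covered pseudocount, filter, scaling (quantile, array median, or 12 poly-A spike-in probe sets), variance trend, probe set choice, replicate block and leaving out each array. The number of arrays limits the precision.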

Additional observations from a re-analysis of the deposited data

How the results depend on the processing

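The 17 alternatives included 6 that left out 1 array. Of the 22 called members 8 kept their call and direction in every one: MCM4, PCNA, TYMS, E2F2, FOXM1, CCNA2, PLK1 and NUF2. PCNA, E2F2, FOXM1, PLK1 and NUF2 have only 1 tested probe set each. The alternatives on probe set choice among those tested could therefore not challenge their calls. For MCM4, TYMS and CCNA2, putting probe sets without a suffix first read the same probe set again. The other 14 lost it in at least 1, and 11 members not called were called in at least 1. Median centring gave 5 members higher (4 replication, 0 mitosis) and 17 lower (6 replication, 10 mitosis), with class medians of -0.036 (replication) and -0.25 (mitosis). Spike-in scaling gave 14 higher and 5 lower, with 0 replication members lower, 3 mitosis members higher and 4 lower, and class medians of 0.27 and 0.051. Both scalings shift all genes together, by construction. Without the variance trend 4 members were higher (3 replication, 0 mitosis) and 9 lower (3 replication, 5 mitosis). Averaging the probe sets of each gene, 2 mitosis members were higher and TOP2A changed sign to 0.10. BIRC5 changed sign to 0.13 when probe sets without a suffix came first, since another probe set is then read. Neither value was called. Leaving out 1 array gave 0 to 1 mitosis members higher, 0 without control replicate B, D20 replicate B or D20 replicate C. It gave 3 to 5 replication members lower, 3 without control replicate C. The replicate block, on letters that do not pair the arrays, gave 10 members higher and 16 lower. Where no cause is named, the cause was not tested.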
